A study of Mus musculus with 4 samples.

Results

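The epicardial and mesothelial genes described here are Wt1, Tbx18, Tcf21, Bnc1, Bnc2, Upk3b, Upk1b, Msln and Lrrn4. These 9 genes were chosen by name from the 24637 genes of one expression table, and all 9 were found. The table holds messenger RNA sequencing of 4 mouse cell lines derived as embryonic stem cells (ESCs), 2 independent lines of genotype Taf4+/+ (WT) and 2 independent lines with a null genotype given as Taf4-/- or Taf4a-/-. Taf4a encodes Taf4, a core subunit of TFIID, the general transcription factor that assembles the preinitiation complex at promoters. Lines of both genotypes were kept as ESCs on inactivated feeder fibroblasts. They then received the same cardiac differentiation: they grew as embryoid bodies in serum medium for 5 days and were plated on gelatin for 9 days more, with RNA taken at this day 9. The library labels give a replicate number and no line name. Each library is taken here as 1 line at 1 time, after the authors' account of 2 independent lines of each genotype. The differences below are read as differences between these lines and have 2 libraries a side.

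The epicardium is the mesothelial sheet that covers the heart. It arises from the proepicardium, a cluster of cells near the venous pole, and spreads over the myocardium. Some of its cells undergo an epithelial-to-mesenchymal transition and enter the heart wall as fibroblasts and mural cells, and similar sheets line the pleura, the peritoneum and the coelomic surfaces of other organs. The transcription factors among the 9 genes are known for specifying or maintaining this tissue, whereas the uroplakins, mesothelin and Lrrn4 are proteins of its cell surface. None of the 9 is exclusive to it: Wt1 also marks the developing kidney and gonad, Tcf21 marks fibroblast progenitors, and Upk1b marks the urothelium.

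Transcripts of all 9 genes were present in all 4 libraries, and the calls among them went in both directions. At a Benjamini-Hochberg adjusted p under 0.05 in limma, fitted over the 16926 genes whose mean reached 10 normalized counts, 1 of the 9 was higher in the libraries labelled Taf4a-/- (Tbx18), against 11.3% of all genes tested, and 2 were lower (Msln and Upk3b), against 17.3%. The other 6 genes were not called. All 9 passed the filter on the mean, so no member was left out. The median log2 fold change of the 9 was -0.02, beside -0.01 over all genes tested, and 6 of the 9 had log2 fold changes within 1 of 0. The 5 transcription factors had 1 call, upwards, and a median of 0.38, and the 4 surface proteins had 2 calls, both downwards, and a median of -0.76; the difference between these groups was not tested. Single libraries moved both: the median of the transcription factors was -0.01 without Taf4a-/- replicate 2 and 0.76, with 3 calls, without Taf4a-/- replicate 1, and 1 to 3 surface proteins were lower when each library was left out. Summed over the 9 genes, the libraries held 7241 and 6620 normalized counts in WT, and those labelled Taf4a-/- had 6435 and 8705, and these ranges overlap. In such bulk RNA, fewer cells of a type and less RNA per cell cannot be told apart.

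**Figure D1:**
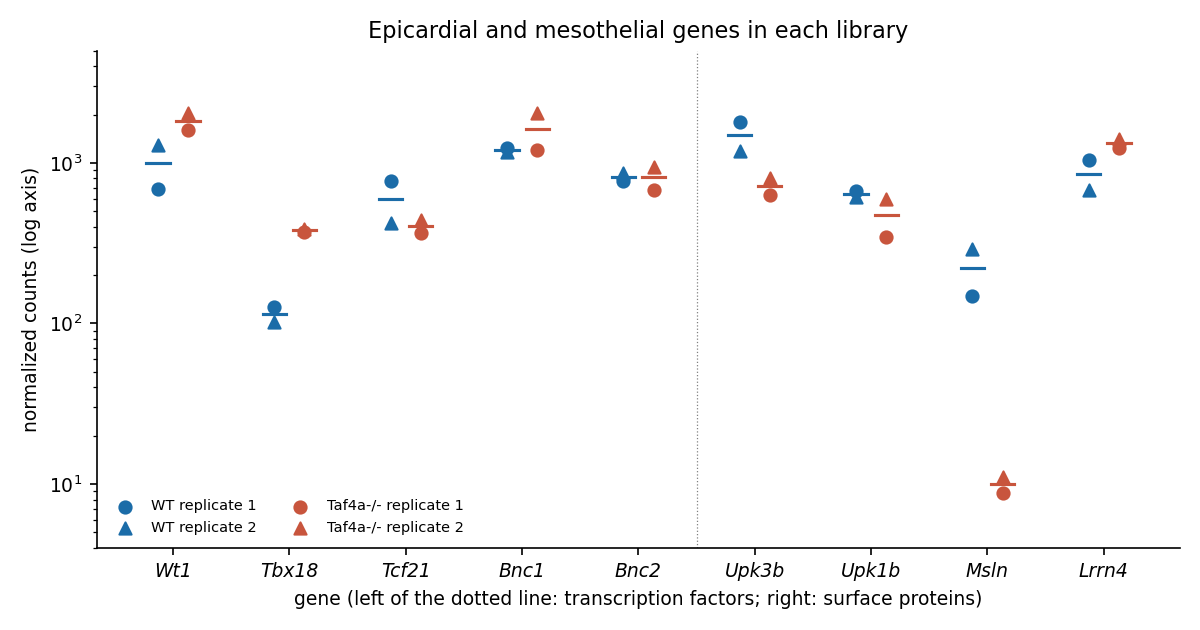
Normalized counts (log axis) of the 9 genes in the 4 libraries, with circles and triangles for replicates 1 and 2, blue for WT, red for the libraries labelled Taf4a-/-, and a short bar at the mean of each genotype. Tbx18 rises from 126 and 102 to 372 and 389, Msln falls from 149 and 293 to 8.81 and 11.1, and Tcf21, Bnc1 and Bnc2 overlap between the genotypes.

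The depth was 27733034 and 24537026 reads over genes in the WT libraries and 24251499 and 21732746 in the libraries labelled Taf4a-/-. A normalized count is a read count divided by 1 scaling factor per library, and 1 read was worth 0.877 to 1.11 normalized counts. The targeted gene did not check the labels: Taf4a had 889 and 678 normalized counts in WT, and those labelled Taf4a-/- had 1722 and 1799, with an adjusted p of 0.00569 in limma, and its paralogue Taf4b was higher as well (263 and 162 against 534 and 534). A count over the whole gene includes exons that a deletion can leave in place, so this level says nothing of the protein. The authors describe a null allele with part of its exons deleted. They report that immunostaining found no Taf4 protein in the Taf4a-/- ESCs. The tissue labelled cardiac cells did carry cardiomyocyte transcripts in WT, and all 13 genes of a cardiomyocyte list fell in those labelled Taf4a-/-, from summed levels of 35402 and 33401 to 3816 and 3634 normalized counts. Lists for macrophages (8 of 8 tested) and visceral endoderm (8 of 9) were also lower, against 17.3% of all genes tested. Of the pluripotency genes, 8 of 9 were higher, against 11.3%. Their summed levels were 4836 and 1696 normalized counts in WT, and 14998 and 17448 in those labelled Taf4a-/-. WT replicate 1 thus held more of these transcripts than WT replicate 2. The part of these cell mixtures in the values of the 9 genes was not tested.

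Tbx18 is a T-box factor of the proepicardium and of the sinus venosus. It had 126 and 102 normalized counts in WT, and 372 and 389 in those labelled Taf4a-/-. Both values labelled Taf4a-/- were about alike and lay above both WT values. Its mean was 3.34 times the WT mean, with a log2 fold change of 1.74 (SE 0.21, 95% interval 1.22 to 2.25, adjusted p = 0.00398 in limma). Without any single library the change stayed between 1.58 and 1.89 and kept its call. Tbx18 lies on chromosome 9 of NCBIM37 at chr9:87597635-87626095, on the minus strand, and its close paralogue Tbx15, a factor of skeleton and skin, was not called (91.2 and 131 in WT, 82.2 and 123 with the Taf4a-/- label; log2 -0.12, 95% interval -0.91 to 0.67). Tbx22, a T-box gene of the palate, was near 0 in every library and was not tested.

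Wt1, a zinc-finger factor required for the epicardium to give rise to mesenchymal cells, also lay higher but was not called. It had 689 and 1298 normalized counts in WT, and those labelled Taf4a-/- had 1599 and 2042. The groups did not overlap, but the 2 WT libraries differed from each other by 0.91 on the log2 scale. The log2 fold change was 0.93 (SE 0.30, 95% interval 0.20 to 1.67, adjusted p = 0.0631 in limma). The call depended on single libraries: it was passed without WT replicate 2 (log2 1.39, adjusted p = 0.0398) and without Taf4a-/- replicate 1 (1.11, 0.0441), while the value was 0.48 without WT replicate 1.

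The region of Wt1 (chr2:104966686-105013773, plus strand) holds a second gene with a clearer difference. AI314831, the antisense transcript Wt1os, starts 18 bases from Wt1 on the minus strand and runs away from it, so that both share a divergent promoter region and no exon. It had 30.7 and 33.3 normalized counts in WT, and those labelled Taf4a-/- had 161 and 140. Both values labelled Taf4a-/- exceeded the WT values by a wide margin, the log2 fold change was 2.20 (SE 0.28, 95% interval 1.51 to 2.88, adjusted p = 0.00467 in limma), and the call held without each library in turn. Wtap, which encodes a protein first found as a binding partner of WT1, was not called (log2 0.11, 95% interval -0.20 to 0.42).

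Tcf21 encodes a helix-loop-helix factor of epicardial cells that form fibroblasts. It had 767 and 422 normalized counts in WT, and those labelled Taf4a-/- had 364 and 443. WT replicate 1 stood above the rest and WT replicate 2 lay between those labelled Taf4a-/-, so the groups overlap. The log2 fold change was -0.50 (SE 0.30, 95% interval -1.22 to 0.22, adjusted p = 0.246 in limma), and it was -0.07 without WT replicate 1 and -0.93 (adjusted p = 0.0577) without WT replicate 2. Its paralogue Msc (musculin) was low and spread widely, from 7.27 to 70.1 normalized counts within WT, and the 95% interval of its log2 fold change (-2.27 to 2.64) was the widest among the relatives. Of its exon length, 29.9% overlaps Gm9947 on the other strand.

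The basonuclins Bnc1 and Bnc2 are zinc-finger proteins of epithelia and of mesothelium. Bnc1 had 1243 and 1172 normalized counts in WT, and those labelled Taf4a-/- had 1198 and 2050.5. A single library, Taf4a-/- replicate 2, stood above the other 3. The log2 fold change of Bnc1 was 0.38 (SE 0.25, 95% interval -0.23 to 0.98, adjusted p = 0.293 in limma). It was -0.01 without that library and 0.76 (adjusted p = 0.0438) without Taf4a-/- replicate 1. Bnc2 had 768 and 861 normalized counts in WT, and those labelled Taf4a-/- had 674 and 949, so both WT values lay inside the range of those labelled Taf4a-/-. Its log2 fold change was -0.02 (SE 0.19), and the 95% interval of -0.50 to 0.45 leaves room for changes of up to about that size. The first exon of Bnc1 (chr7:89111558-89137185, minus strand) overlaps a pseudogene, 4833418N17Rik, on the other strand over 105 bases, which are 2.26% of the exon length of Bnc1. The library kit does not mark strand, so reads there cannot be assigned to either gene. The pseudogene's own level was 4.38 to 18.8 normalized counts.

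Msln had the largest fall of the 9. It encodes mesothelin, a surface glycoprotein anchored by a lipid tail that is widely used as a marker of mesothelial cells. It had 149 and 293 normalized counts in WT and 8.81 and 11.1, from 9 and 10 reads, in the libraries labelled Taf4a-/-. The libraries labelled Taf4a-/- were alike and low, although not at 0, whereas the WT libraries differed from each other by 0.97 on the log2 scale, the widest WT difference among the 9. The log2 fold change was -4.27 (SE 0.42, 95% interval -5.30 to -3.24, adjusted p = 0.00251 in limma), or a fitted fall of 19.3 times. Without any single library it was between -4.76 and -3.79 and kept its call. The neighbouring gene Mslnl, which encodes a mesothelin-like protein and ends 283 bases from Msln (chr17:25885559-25891272, minus strand), was not tested, with 4 and 5 reads in WT and 0 and 1 in the others.

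Upk3b, a membrane glycoprotein of the uroplakin family that is enriched in mesothelium, was the other gene that was lower. It had 1788 and 1181 normalized counts in WT, and those labelled Taf4a-/- had 633 and 810. The groups did not overlap, and the smallest gap lay between WT replicate 2 and Taf4a-/- replicate 2. The log2 fold change was -1.02 (SE 0.23, 95% interval -1.58 to -0.46, adjusted p = 0.0241 in limma). This call rests on 2 libraries: it was lost without WT replicate 1 (log2 -0.72, adjusted p = 0.062) and without Taf4a-/- replicate 1 (-0.84, 0.0651), while the direction stayed. Upk1b, a tetraspanin that pairs with uroplakin III proteins, had 672 and 614 normalized counts in WT, and those labelled Taf4a-/- had 347 and 598. The groups met almost at 614 and 598, the log2 fold change was -0.49 (SE 0.27, 95% interval -1.14 to 0.15, adjusted p = 0.208 in limma), and it was -0.89 (adjusted p = 0.0468) without Taf4a-/- replicate 2 and -0.10 without Taf4a-/- replicate 1.

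The 3 tested relatives of these uroplakins were lower too. Upk1a, the tetraspanin paralogue of Upk1b, had 95.6 and 154 normalized counts in WT, and those labelled Taf4a-/- had 41.1 and 46.5 (log2 -1.45, SE 0.34, adjusted p = 0.0257 in limma). Its call was lost without WT replicate 2 (adjusted p = 0.101) and without Taf4a-/- replicate 1 (0.0727). Upk3a had 27 and 81 reads in WT, and those labelled Taf4a-/- had 3 and 2, and its adjusted p was 0.014 in limma. The scaled reads of Upk3a were 19.8 times higher in WT, with an exact interval of 8.22 to 62.1 that covers counting error only. 2310043J07Rik, the Upk3b-like gene that lies 9.19 kb from Upk3b on the same strand (Upk3b at chr5:136514366-136521173), fell from 66.6 and 27.0 to 5.87 and 2.21 normalized counts (log2 -3.21, adjusted p = 0.0177). The call of Upk3a was lost without WT replicate 2 (adjusted p = 0.0522), and that of 2310043J07Rik without either WT library (0.0634 and 0.0508). Upk2 was at 2.21 to 10.5 normalized counts and was not tested.

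Lrrn4 was the one surface gene with higher values. It encodes a leucine-rich repeat membrane protein used as a mesothelial marker. It had 1039 and 676 normalized counts in WT, and those labelled Taf4a-/- had 1239 and 1412. The groups did not overlap. The log2 fold change was 0.66 (SE 0.22, 95% interval 0.12 to 1.19, adjusted p = 0.0691 in limma), so it was not called, and it reached 0.97 (adjusted p = 0.0199) without WT replicate 1. Of its paralogues, Lrrn2 (153 and 312 in WT, 73.4 and 70.8 with the Taf4a-/- label; log2 -1.59, adjusted p = 0.0257) and Lrrn3 (328 and 136, 42.1 and 56.4; log2 -2.09, adjusted p = 0.0209) were lower, and Lrrn1 was not called (95% interval -1.51 to 0.99). The call of Lrrn2 was lost without WT replicate 2 (adjusted p = 0.0796) and that of Lrrn3 without WT replicate 1 (0.051). Over all paralogues and partners of the 9 genes, 10 of 13 were tested. Of these, 1 was higher and 5 were lower (against 11.3% and 17.3% of all genes tested), and the median log2 change was -0.86. The lower ones numbered 1 without WT replicate 2 and 3 without WT replicate 1.

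**Figure D2:**
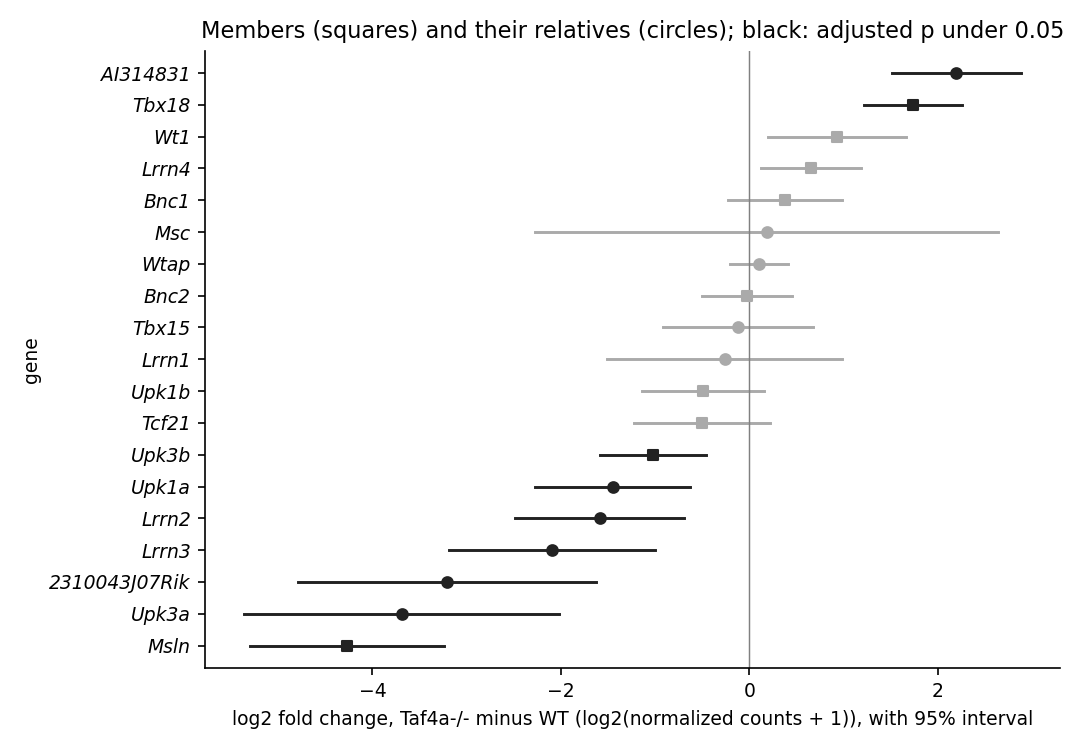
Log2 fold change, Taf4a-/- minus WT on the scale of log2(normalized counts + 1), with its 95% interval, for the 9 genes (squares) and the 10 tested relatives (circles); black marks an adjusted p under 0.05. AI314831 (2.20) and Tbx18 (1.74) stand at the top, Msln (-4.27) and Upk3a at the bottom, and the intervals of Bnc1, Bnc2, Tcf21 and Upk1b cross 0.

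Without regard to the test, 6 of the 9 genes had groups that did not overlap (3 higher and 3 lower), against 71.1% of all genes tested. This share is near that of all genes. The libraries of one genotype differed by a median of 0.60 on the log2 scale in WT and 0.35 in those labelled Taf4a-/-. All 9 genes were higher in Taf4a-/- replicate 2 than in Taf4a-/- replicate 1, by up to 0.79 (Upk1b). In WT, 3 of the 9 were higher in replicate 2. The share of all genes tested that did the same was not counted, so these counts are no result about the 9 genes. In WT, Wt1 and Msln were higher in replicate 2 by 0.91 and 0.97, and Tcf21, Upk3b and Lrrn4 were higher in replicate 1.

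Per kilobase of exon, the order of the 9 genes differed between the genotypes. In WT, Upk3b led with 633 ± 183 normalized counts per kb (SD, n = 2), followed by Tcf21 (486 ± 200) and Upk1b (363 ± 23.0), and the values of neighbours in this top 3 overlapped. The next 5 genes, Bnc1, Lrrn4, Wt1, Msln and Bnc2, ran from 260 ± 10.8 down to 90.2 ± 7.31 with each overlapping the next, and Tbx18 came last at 24.4 ± 3.69, below all others. In the libraries labelled Taf4a-/-, Lrrn4, Bnc1, Tcf21, Upk3b, Wt1 and Upk1b overlapped in this order from 357 ± 32.9 to 267 ± 101 per kb. Bnc2 (89.9 ± 21.5) and Tbx18 (81.4 ± 2.62) formed a lower pair, and Msln came last at 4.70 ± 0.75. Among all genes ranked by level per kb, Msln moved from percentile 58.9 in WT to 29.0 in the libraries labelled Taf4a-/-, Tbx18 from 43.7 to 57.1, and Upk3b from 88.5 to 77.1.

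Levels of one gene relative to another within a library do not depend on the scaling. Per kb, Msln was at 63.4% and 66.2% of Wt1 in WT and at 1.61% and 1.59% in the libraries labelled Taf4a-/-. Upk3b was at 685% and 240% of Wt1 in WT and at 105% in both libraries labelled Taf4a-/-. Both surface genes were thus lower relative to Wt1 in each library labelled Taf4a-/- than in either WT library. Wt1 itself was at 111 and 209 per kb in WT and at 258 and 330 in the libraries labelled Taf4a-/-. A ratio to Wt1 can therefore fall without a fall of the other gene. Tcf21, Bnc2, Upk1b and Lrrn4 were not set against Wt1 here. Bnc1 was at 240% and 120% of Wt1 in WT and at 99.8% and 134% in the others, which overlap. Tbx18 was at 24.3% and 10.4% of Wt1 in WT and at 30.8% and 25.2% in the others, which do not overlap by a small margin.

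The sequences upstream of 3 of the 9 genes are shown because these genes went in different directions: Tbx18 was called higher, Upk3b was called lower, and Lrrn4 was not called and had higher values. Each is the 250 bases before the RefSeq start of the gene in GRCm38.p6, written 5′ to 3′ on the gene's strand. Capitals mark CCAAT, or ATTGG on the other strand, in Tbx18, and CATTCC, or GGAATG on the other strand, in Upk3b and Lrrn4. CCAAT is the core bound by NF-Y, and CATTCC is the core of sites of the TEAD factors, partners of the Hippo pathway effectors.
Tbx18 (chr9:87731261-87731510, minus strand): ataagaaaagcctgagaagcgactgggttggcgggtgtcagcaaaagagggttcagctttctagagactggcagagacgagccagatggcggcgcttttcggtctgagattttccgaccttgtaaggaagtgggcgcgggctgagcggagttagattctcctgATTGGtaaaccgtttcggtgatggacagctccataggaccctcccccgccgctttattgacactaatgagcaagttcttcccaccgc
Upk3b (chr5:136038246-136038495, plus strand): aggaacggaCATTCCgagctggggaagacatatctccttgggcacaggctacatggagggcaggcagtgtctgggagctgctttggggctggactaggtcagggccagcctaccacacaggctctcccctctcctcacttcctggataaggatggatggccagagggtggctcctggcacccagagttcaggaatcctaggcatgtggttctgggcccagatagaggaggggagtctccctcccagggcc
Lrrn4 (chr2:132880863-132881112, minus strand): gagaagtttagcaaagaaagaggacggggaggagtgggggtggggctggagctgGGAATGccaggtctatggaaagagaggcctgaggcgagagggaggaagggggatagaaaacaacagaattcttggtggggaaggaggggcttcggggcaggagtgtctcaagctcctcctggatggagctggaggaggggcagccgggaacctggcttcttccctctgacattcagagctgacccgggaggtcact
Such windows were analysed here for 6 of the 9 genes (Tbx18, Tcf21, Bnc1, Bnc2, Upk3b and Lrrn4), and those of Wt1, Upk1b and Msln were not used here. Both strands were searched for 4 sets of letters. TATAAA, the TATA box core, was in 0 of the 6, against 12.4% of 32851 mouse windows of the same length, and CCAAT was in 1 (Tbx18, 87 bases before the start), against 33.8%. GGGCGG, the GC box core, was in 1, Bnc1, which held 5 copies in a window of 83.6% GC, against 32.7% of all windows. CATTCC was in 2, Upk3b (241 bases before the start) and Lrrn4 (196 bases before it), against 12.6%. The 2 genes with CATTCC therefore had log2 fold changes on opposite sides of 0. The GC content of the windows was 54.0% for Tbx18, 60.8% for Upk3b and 59.2% for Lrrn4, beside a median of 52.4% over all windows. The Bnc2 window, at 35.6% GC, belongs to a RefSeq start that lies 64889 bases inside the gene as NCBIM37 annotates it. A match or its lack describes these letters only.

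Other genes known from epicardium and mesothelium moved in both directions, more of them down than up. Of 30 such genes, 27 were tested, 3 were higher and 12 were lower. Over all genes tested, 11.3% were higher and 17.3% were lower, so higher calls were about as frequent here as over all genes. The median log2 fold change of the 27 was -0.63, beside -0.01 over all genes tested. Aldh1a2, the retinaldehyde dehydrogenase that makes retinoic acid in the epicardium, had 522 and 410 normalized counts in WT, and those labelled Taf4a-/- had 1510 and 1676. Its log2 fold change of 1.78 (SE 0.16, adjusted p = 0.00203 in limma) was close to that of Tbx18, and its call held without each library in turn. Among the genes that were lower, Itga4, the integrin that binds Vcam1 and holds the epicardium to the myocardium, fell from 1110 and 2663 to 138 and 157 normalized counts (log2 -3.54, SE 0.39, adjusted p = 0.00325). C3, a complement component made by mesothelial cells, fell from 196 and 428 to 23.5 and 26.5 (log2 -3.48). Anxa8, an annexin, fell from 335 and 293 to 23.5 and 39.8 (log2 -3.31). Krt7, a simple-epithelial keratin, fell from 943 and 1596 to 239 and 191 (log2 -2.52). The lists for macrophages and visceral endoderm were lower too (medians -8.63 and -6.24), and the part of those cells in these falls was not tested. The broader epithelial keratins Krt8 and Krt18 were not called, with 95% intervals of -0.35 to 0.32 and -0.43 to 0.33 on the log2 scale. Podxl, a sialomucin of podocytes and of mesothelium, was not called either (log2 0.37, adjusted p = 0.127). Krt19, Gata4 and Efemp1 among the lower genes, and Scx and Cdh2 among the higher ones, had adjusted p between 0.0323 and 0.0484 and lost their call when single libraries were left out. Over all alternatives, 6 to 13 of the 27 were lower, the fewest without WT replicate 2, and 1 to 4 were higher, with 1 without WT replicate 2 or either library labelled Taf4a-/-.

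**Figure D3:**
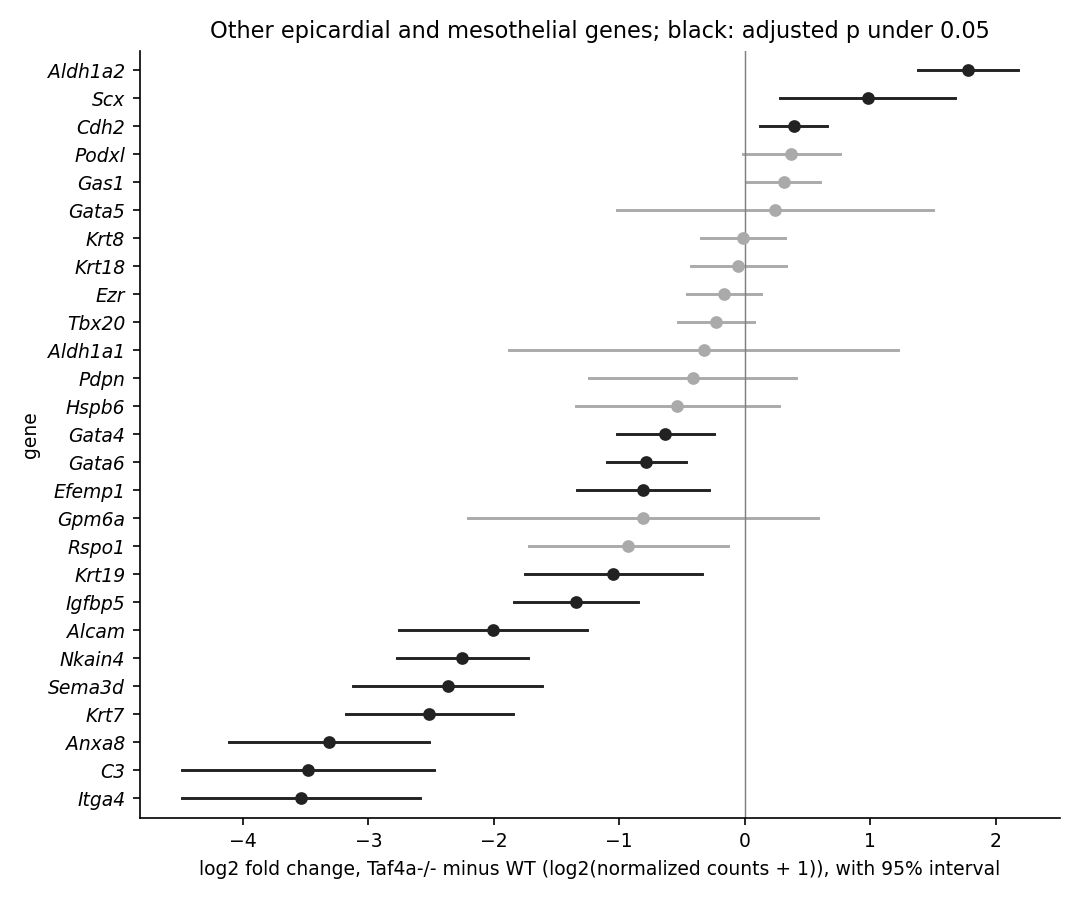
Log2 fold change, Taf4a-/- minus WT on the scale of log2(normalized counts + 1), with its 95% interval, for the 27 tested genes of the wider epicardial and mesothelial list; black marks an adjusted p under 0.05. Aldh1a2 (1.78) is at the top, the 12 lower genes run down to Itga4 (-3.54), and Krt8 and Krt18 lie at 0.

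Signals that pass between epicardium and myocardium, and genes of cells that descend from the epicardium, were described by lists of their own. Over all genes tested, 11.3% were higher and 17.3% were lower, and these shares stand beside every count of these lists. Of 26 genes of epicardial signalling, 1 was higher and 11 were lower (median -0.54), and without Taf4a-/- replicate 2 these counts were 0 and 9. Vcam1, the myocardial ligand of integrin alpha 4, fell from 1550 and 1742 to 114 and 94.0 normalized counts (log2 -3.97, adjusted p = 0.000556 in limma). Transcripts of both partners of this adhesion pair were thus lower in these bulk libraries. The macrophage and cardiomyocyte lists were lower too, and the part of such cell mixtures in these falls was not tested. Tgfb3, a growth factor of epithelial-to-mesenchymal transition, fell from 1661 and 1989 to 370 and 319 (log2 -2.40, adjusted p = 0.00102). Bmp10, a factor of trabecular myocardium, had 78 and 16 reads in WT, and those labelled Taf4a-/- had 0 and 2 (43.0 times higher in WT, exact counting interval 11.6 to 361). Ctnnb1, which encodes beta-catenin, was not called (log2 0.38, adjusted p = 0.117).

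Of 15 genes of epicardium-derived cells and fibroblasts, 0 were higher and 11 were lower (median -1.95), or 1 and 10 without WT replicate 1. Lum (log2 -7.01) and Dcn (-4.63), small proteoglycans of the collagen matrix, were lower, and so were the collagen genes Col1a2 (-3.77) and Col3a1 (-3.68), each with an adjusted p of 0.00127 or below in limma. Fn1, the fibronectin gene, was not called (log2 0.42, adjusted p = 0.30). Of 12 genes of smooth muscle and pericytes, 1 was higher and 6 were lower (median -0.95), among them Myh11 (-3.88) and Acta2 (-1.14). Without WT replicate 2, 3 of these 12 were lower (median -0.49), and without the variance trend 4 were lower and 0 higher. Bgn, the matrix proteoglycan biglycan, had the profile over the 4 libraries closest to that of Msln, with 2336 and 4439 normalized counts in WT, and those labelled Taf4a-/- had 147 and 196 (root mean square distance 0.05 on the centred log2 scale). By the same measure Aldh1a2 was closest to Tbx18 (0.04), Txnrd3 to Upk3b (0.03), Tox to Tcf21 (0.05), Fam203a to Lrrn4 (0.03), Rpl39 to Upk1b (0.05), A930001C03Rik to Wt1 (0.04), Gm16880 to Bnc1 (0.01) and Gm17149 to Bnc2 (0.02). The mean profile of the 9 genes was closest to those of Ulk4, Tdrkh, Vsig10l, 0610030E20Rik and Fam131b (0.02 to 0.04). With 16926 genes and 4 libraries, a near gene was found for every profile, so these matches are no evidence of a link.

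Several of the 9 genes are shared with other tissues, and the markers of those tissues were examined beside them. The shares over all genes tested, 11.3% higher and 17.3% lower, apply here too. Of 10 urothelial and squamous genes, 1 was higher and 8 were lower (median -2.22), with summed levels of 3390 and 4206 normalized counts in WT, and those labelled Taf4a-/- had 1540 and 1386. They include Krt5 (log2 -5.03), a basal keratin, Krt20 (-3.69), a keratin of superficial urothelium, and Trp63 (-3.27), a factor of stratified epithelia. The higher one was Elf3 (log2 0.83, adjusted p = 0.0235 in limma). The lower ones went in the direction of Upk3b, Upk3a and Upk1a, while Upk1b was not called (log2 -0.49). Without WT replicate 2, 5 of the 10 were lower, and without either library labelled Taf4a-/- 0 were higher. Of 16 nephrogenic and gonadal genes, 13 were tested, 1 was higher and 2 were lower (median 0.29), and the summed levels were 8498 and 8437 in WT and 7972 and 7683 in the others. The higher one was Nphs1, which encodes the podocyte protein nephrin and is a known target of WT1, with 34.2 and 22.9 normalized counts in WT, and those labelled Taf4a-/- had 143 and 259 (log2 2.74, adjusted p = 0.00663 in limma); its adjusted p was 0.0554 without WT replicate 2. The number of higher genes in this list was 0 without WT replicate 2, 4 without WT replicate 1 and 2 without Taf4a-/- replicate 2. Osr1 (-2.23) and Synpo (-1.35) were lower, and Cited2, a cofactor of WT1 in the gonad, was not called (95% interval -0.16 to 0.45). Of 8 genes of the septum transversum and of stellate cells, 7 were tested, 0 were higher and 3 were lower, led by the growth factor gene Hgf (log2 -3.45), and without WT replicate 1 the counts were 1 and 2. Of 10 endothelial genes 1, Vwf, was lower, and this count did not hold: it was 0 without any 1 of WT replicate 1, WT replicate 2 or Taf4a-/- replicate 1, and 3 without Taf4a-/- replicate 2. The part of any of these tissues in the values of the 9 genes was not tested.

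**Figure D4:**
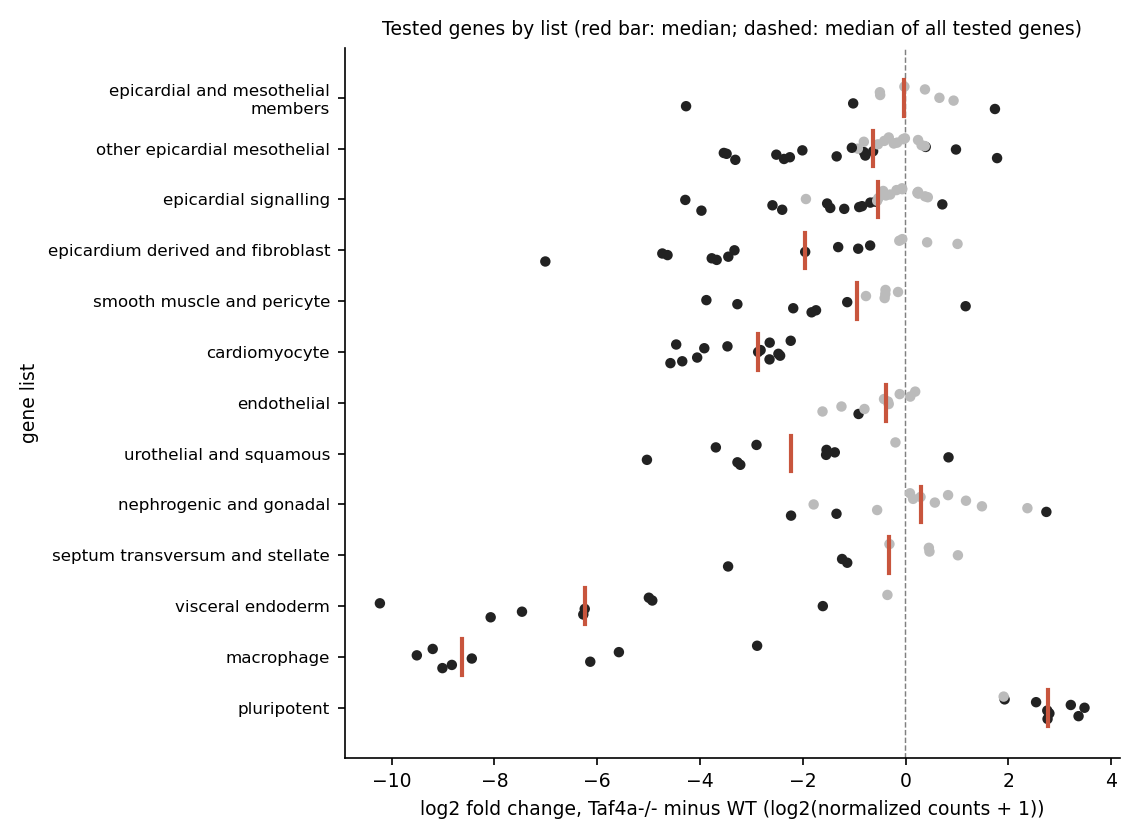
Log2 fold change, Taf4a-/- minus WT on the scale of log2(normalized counts + 1), of every tested gene of each list (rows), black where the adjusted p is under 0.05, with a red bar at the median of the list and a dashed line at the median of all genes tested (-0.01). The 9 genes spread from -4.27 to 1.74 around a median of -0.02, while the medians of the fibroblast (-1.95) and cardiomyocyte (-2.87) lists lie to the left and that of the pluripotency list (2.76) to the right; genes at 0 reads in a library, as in the macrophage and visceral endoderm lists, sit at fitted values that depend on the pseudocount.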

How the data were processed

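Messenger RNA of 4 ESC-derived lines (2 WT and 2 labelled Taf4a-/-) was sequenced from poly-A libraries whose kit does not mark strand. The authors mapped the reads to mm9. Their processing notes name CASAVA 1.8, TopHat 1.3.3, HTSeq 0.5.3p1 and DESeq, and the annotation release is not given in the sources used here. The values used are the deposited normalized counts, that is, gene counts divided by 1 size factor per library, written with decimal commas. 100% of them were whole multiples of the value of 1 read (tolerance 0.01). The NCBIM37 annotation held every one of the 24637 identifiers, and from it came positions and exon lengths; 99.4% had the same symbol.

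For the 16926 genes whose mean reached 10, limma 3.58.1 (R 4.3.3) was fitted to log2(value + 1), a scale that understates the change of low genes, and moderated by eBayes with its variance trend. Genes were called at an adjusted p under 0.05. Pooling over genes gave 4.17 prior degrees of freedom. With 2 lines a side, p-values rest on the spread between these lines, which is pooled in part over genes. The fit was first tested on simulated data. Intervals of reads cover counting error only. The members, the 188 genes of the lists, and their tests were chosen with earlier results of these data known. The genes named are the 9 members, their paralogues and neighbours, and Taf4a and Taf4b. The nearest profiles are named too (1 gene for each member, 5 for their mean). Others came from the 4 called genes of each list with the largest changes and its 2 most abundant tested genes. Only some of these are named, and none from the cardiomyocyte, macrophage, visceral endoderm and pluripotency lists. Krt8, Krt18, Krt19, Gata4, Efemp1, Scx and Cdh2 were named after their values were seen. Upstream sequences came from RefSeq. Alternatives were other pseudocounts, filters, scalings and variance models, voom on the recovered reads, a replicate block, a stricter threshold, and leaving out each library.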

Additional observations from a re-analysis of the deposited data

How the results depend on the processing

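Over 13 or 14 alternatives for each of the 9 genes, 106 of 120 values kept their direction and their side of the threshold, 4 lost a call (Upk3b), 6 gained one and 4 turned direction (Bnc1 and Bnc2). Tbx18 (log2 1.58 to 2.00, adjusted p 0.00295 to 0.0367 in limma) and Msln (-4.76 to -3.46, 0.0002 to 0.0366) did so in all 14 each. Without the variance trend, 1 member was lower, Msln, and Upk3b lost its call (adjusted p = 0.0815 in limma). In that fit, 1741 genes were lower and 856 higher, against 2928 and 1906 with the trend. At an adjusted p under 0.01, 1 member was lower, and 1119 genes were lower and 331 higher. Leaving out each library gave 1 to 3 members lower, 1 to 3 members higher, 1222 to 3038 genes lower and 624 to 2476 higher, with the lone library of a genotype assumed to vary like the others. The lowest counts came without WT replicate 2 (1222 lower) and without Taf4a-/- replicate 2 (624 higher). In these fits Bnc1 ranged from -0.0107 to 0.764 and Bnc2 from -0.27 to 0.222. Quantile normalization moved the median of all genes to 0.11 and the calls to 2624 higher and 2460 lower, and Bnc2 to 0.0779; the cause of these changes was not tested. With a replicate block, 2 members were higher (Wt1 joined, adjusted p = 0.0172), and 1536 genes were higher and 2657 lower. Same-numbered libraries did not deviate together (r = 0.0118 across 16926 genes, which are not independent replicates). With 2 libraries a side, this cannot tell whether the number marks a pairing. No other member's call changed with the block. Voom on the recovered reads called 1813 genes higher and 2753 lower. The planned edgeR and DESeq2 alternatives were not run, so voom was the only count-based alternative. The SE of the 9 log2 fold changes was 0.19 to 0.42, which sets what 2 lines a side resolve.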
